A study of Arabidopsis thaliana with 12 samples.

Results

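The mitotic cell cycle genes examined here are 33 of the 28642 genes in the deposited tables. They were chosen by locus identifier: 15 A- and B-type cyclins, 5 cyclin-dependent kinases (CDKs), the transcription factor MYB3R4, 3 Aurora kinases with TPX2, 2 CDC20 genes with MAD2, and 5 spindle and cytokinesis genes. Each was found in the tables. The study grew Arabidopsis thaliana seedlings in vitro on half-strength Murashige and Skoog medium and took RNA from the first leaf pair at 10 days after stratification, a stage the labels call proliferation. The control group had no addition, the mannitol group had 25 mM mannitol (a sugar alcohol that imposes mild osmotic stress), the NAA group had 0.1 µM of the synthetic auxin NAA (1-naphthaleneacetic acid), and the combined group had both, with 3 biological replicates in each of the 4 groups. The sources used here give neither the ecotype nor the number of plants behind a replicate.

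Young leaves grow first by cell division and then by expansion, and the transition is accompanied by repeated DNA replication without mitosis, called endoreduplication. Entry into mitosis requires CDKs bound to A- or B-type cyclins, and many of these genes are transcribed in a burst around the passage from G2 to M phase. MYB3R transcription factors bind a promoter element, the mitosis-specific activator (MSA), whose core is AACGG, and activating and repressing members of the family shape that burst. Destruction of the cyclins by the anaphase-promoting complex (APC/C) with its CDC20 activators ends mitosis, after which the plant cell builds a cell plate inside a microtubule array called the phragmoplast.

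The measurement used is the authors' p-value per gene for mannitol, NAA, or both against control. These p-values come with no direction, size of difference or estimate of replicate spread, so nothing below says whether a transcript was higher or lower. Whether the test behind them used the replicates is not given. Levels and depth in single libraries are not analysed here, because the library columns carry only running numbers that match no sample label. A gene is called when its p, adjusted by the Benjamini-Hochberg method over all 28642 genes, was under 0.05. The 3 comparisons share their control samples, so their values are set side by side, in the order mannitol, NAA and both compounds, and not tested against each other. In whole leaf pairs, a changed number of dividing cells and a changed amount of RNA per dividing cell cannot be told apart.

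The AACGG core of the MSA element was more frequent around the start of these genes than around gene starts in general. In the window from 250 bases before to 50 after the annotated start, 23 of 33 genes held it on either strand (69.7%, 95% Wilson interval 52.7 to 82.6%). Among all 27443 protein-coding promoters of the 5 nuclear chromosomes 24.7% held it. The 33 were chosen as mitotic genes and include close relatives, so the Wilson intervals given here and below are descriptions and not a test. At least 2 matches were found in 16 of the 33 (48.5%) and in 4.89% of all promoters. Within this window a match was found for 8 of 9 B-type cyclins, all 5 spindle and cytokinesis genes, 3 of 6 A-type cyclins and 1 of 5 CDKs. The matches of CYCB1;4, CYCB3;1, EDE1 and CDC20.2 all began at or after the start base. The next windows show the 250 bases before the start for 6 genes called in at least 1 comparison, 4 with the core and 2 without. They are given 5′ to 3′ on the gene's strand, from RefSeq's TAIR10.1 genome and annotation, with each AACGG, or its reverse complement CCGTT, in capitals.

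CYCB2;1: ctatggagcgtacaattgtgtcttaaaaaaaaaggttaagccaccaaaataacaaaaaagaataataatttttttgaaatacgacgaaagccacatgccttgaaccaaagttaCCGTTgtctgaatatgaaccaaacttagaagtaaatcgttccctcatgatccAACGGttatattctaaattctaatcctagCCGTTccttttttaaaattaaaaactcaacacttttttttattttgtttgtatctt
HINKEL: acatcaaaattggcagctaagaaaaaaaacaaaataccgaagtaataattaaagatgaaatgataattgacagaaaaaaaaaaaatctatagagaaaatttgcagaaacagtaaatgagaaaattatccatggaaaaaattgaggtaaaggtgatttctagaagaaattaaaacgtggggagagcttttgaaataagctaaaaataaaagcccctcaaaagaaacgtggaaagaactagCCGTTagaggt
CDKB1;2: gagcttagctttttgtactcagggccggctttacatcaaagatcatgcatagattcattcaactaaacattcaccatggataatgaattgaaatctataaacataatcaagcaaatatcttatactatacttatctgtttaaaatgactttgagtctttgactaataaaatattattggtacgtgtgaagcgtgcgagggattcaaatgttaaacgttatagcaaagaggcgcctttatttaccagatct
CYCB1;1: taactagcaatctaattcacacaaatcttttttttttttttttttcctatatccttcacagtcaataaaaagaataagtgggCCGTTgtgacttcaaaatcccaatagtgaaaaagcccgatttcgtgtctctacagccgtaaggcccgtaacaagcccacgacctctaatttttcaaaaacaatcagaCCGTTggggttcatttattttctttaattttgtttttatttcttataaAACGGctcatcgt
CYCA2;1: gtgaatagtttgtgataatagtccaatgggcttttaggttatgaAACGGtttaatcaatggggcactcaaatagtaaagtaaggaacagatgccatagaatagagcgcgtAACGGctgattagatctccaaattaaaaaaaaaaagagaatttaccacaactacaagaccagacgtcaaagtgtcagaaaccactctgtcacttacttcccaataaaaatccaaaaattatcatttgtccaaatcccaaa
CDKA;1: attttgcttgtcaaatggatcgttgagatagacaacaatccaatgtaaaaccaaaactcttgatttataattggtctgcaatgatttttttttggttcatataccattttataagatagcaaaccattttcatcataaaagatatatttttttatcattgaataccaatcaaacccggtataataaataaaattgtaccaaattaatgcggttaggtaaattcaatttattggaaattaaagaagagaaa

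CYCB2;1 (chr2:7663805-7664054, plus strand) and CYCB1;1 (chr4:17624309-17624558, minus strand) each held 3 matches. CYCA2;1 (chr5:8814267-8814516, plus strand) held 2 and HINKEL (chr1:6324379-6324628, minus strand) held 1, at position -11, counted from the start. CDKB1;2 (chr2:16152223-16152472, plus strand) and CDKA;1 (chr3:18071204-18071453, plus strand) held none, which says only that these letters are not in the window. None of the 6 windows overlapped another annotated protein-coding gene. The cyclins CYCB2;1, CYCB2;2 and CYCB2;3 held 3 matches each, in the order opposite, gene and opposite strand. CYCB1;3 held 3 in the same order, and CYCB2;4, the remaining CYCB2 cyclin among the members, held none. For CYCB2;1, CYCB2;2, CYCB2;3 and CYCB1;3 the first match lay at -137, -172, -114 and -64 from the start. The last lay at -56, -102, -47 and -5.

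**Figure D1:**
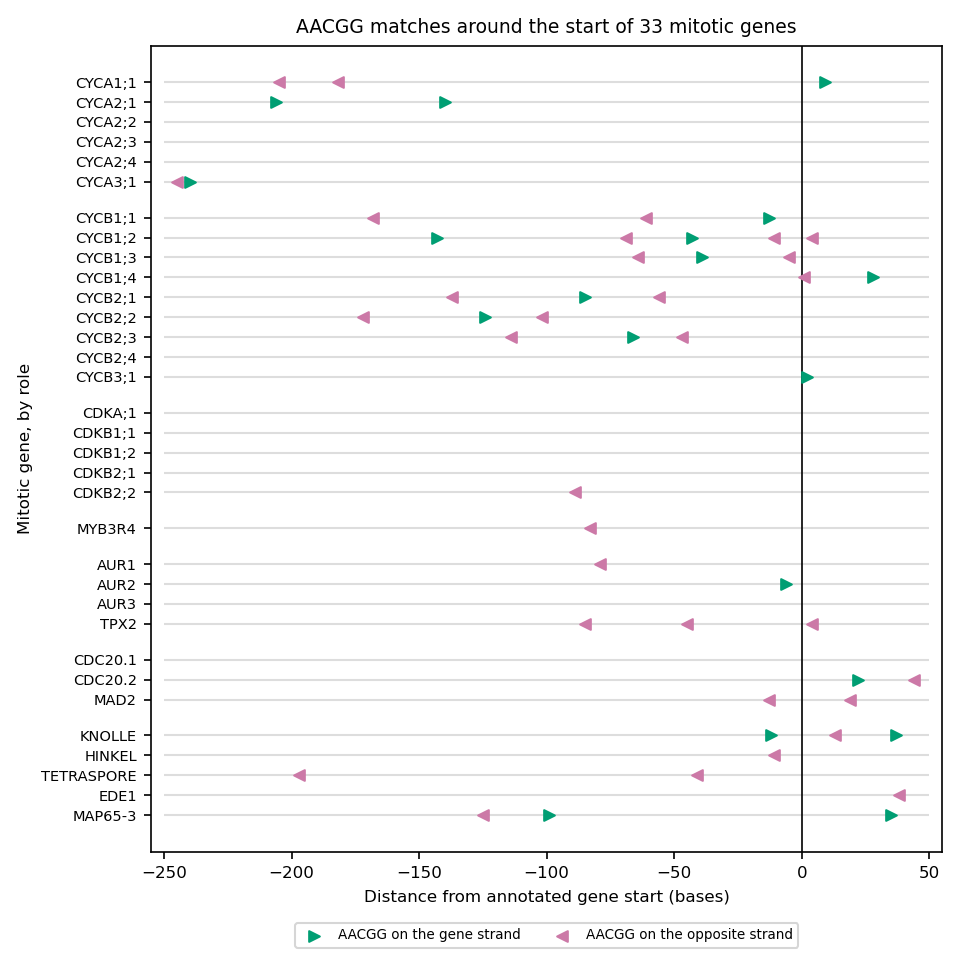
Position of each AACGG match (triangles, pointing along the strand it reads on) from 250 bases before to 50 after the annotated start of the 33 mitotic genes, in bases. Of 51 matches, 38 began before the start, and 10 genes had none.

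Of these 51 matches, 19 read on the gene's strand and 32 on the opposite strand, with a median position of -56. On the gene's strand alone 15 of 33 genes (45.5%) and 13.7% of all promoters held the core. The longer words CAACGG or TAACGG, which contain the core, on either strand, were in 22 of 33 genes (66.7%) and 12.8% of all promoters. A set of E2F-like words, which mark S-phase promoters, was examined after these results (TTTCCCGC, TTTGGCGC, TTTGCCGC or TTTCGCGC, either strand). It was in 0 of the 33 windows (95% Wilson interval 0 to 10.4%) and in 1.76% of all promoters. TGGGCC or TGGGCT, words of the kind bound by TCP factors and chosen at the same point, were in 9 of 33 (27.3%) and in 21.7% of all promoters. These shares are descriptions of letters in a window, with no test.

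Under mannitol 5 of the 33 genes were called (15.2%), against 9.07% of all genes. Among the 21593 genes with a deposited p under 1 in that comparison, which includes every member, the share was 12.0%. Under NAA 8 were called (24.2%), against 12.8% of all genes and 17.2% of genes with a p under 1. With both compounds 4 were called (12.1%), against 26.3% of all genes and 34.5% of genes with a p under 1. At least 1 comparison called 13 genes, and 20 were called in none.

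Under NAA 22 of the 33 genes had a p under 0.05 in the authors' deposited table (66.7%, against 21.8% of all genes and 29.2% of those with a p under 1). Under mannitol 7 did (21.2%, against 17.9% and 23.8%), and with both compounds 5 did (15.2%, against 33.9% and 44.5%), in the authors' deposited table. The median p of the members in the authors' deposited table was 0.145 for mannitol, 0.0195 for NAA and 0.388 for the combination. Among genes with a p under 1 the corresponding medians in the authors' deposited table were 0.306, 0.248 and 0.0864. The members' median p therefore lay below that of those genes under mannitol and NAA and above it with both compounds. Under mannitol their share under 0.05 was nonetheless the lower (21.2% against 23.8%). The sets were not matched for expression level. In each comparison a group of genes (1235, 1290 and 1218) was tied at 0.317, the p of a normal z of 1. Benjamini-Hochberg adjustment would have raised that value, so the deposited values read as unadjusted. The calls apply that adjustment and take the deposited p as given. In a setting that referred each p to a t distribution with 4 degrees of freedom, 0 members were called in each comparison. Its limits are given at the end.

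**Figure D2:**
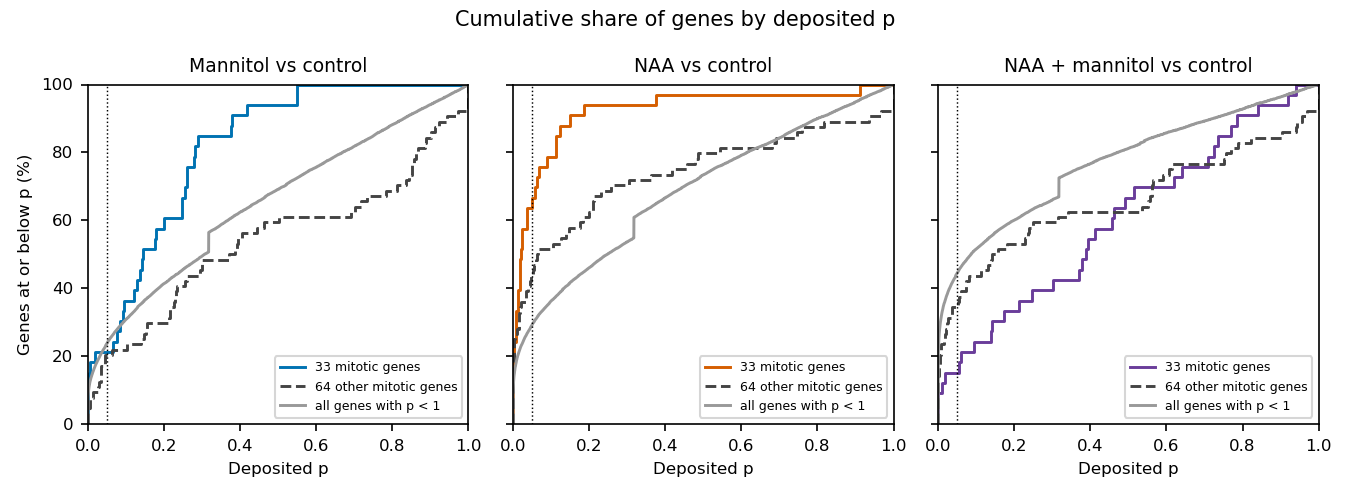
Share of genes (vertical axis, percent) whose deposited p lies at or below the value on the horizontal axis, for the 33 mitotic genes (coloured), 64 other mitotic genes (dashed) and all genes with a p under 1 (grey). At the dotted line (0.05) the coloured curve stands at 21.2%, 66.7% and 15.2% in the 3 comparisons, and the step in the grey curve is a group of genes tied at 0.317.

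The role groups that follow are small, and their counts stand beside the 9.07%, 12.8% and 26.3% of all genes called. Each comparison called 1 or 2 of the 6 A-type cyclins. CYCA1;1 (AT1G44110), a cyclin of the G2-to-M passage, had a p of 0.278 for mannitol, 1.7e-05 for NAA and 0.0536 for the combination in the authors' deposited table. Its Benjamini-Hochberg adjusted p from the authors' deposited table was 0.000385 under NAA, where it was called. CYCA2;1 (AT5G25380) had a p of 0.00135, 0.911 and 1.76e-06 in the same order in the authors' deposited table. From the authors' deposited table it was called under mannitol (Benjamini-Hochberg adjusted p = 0.0192) and with both compounds (2.08e-05), and its p under NAA was the largest of the 33. CYCA2;3 (AT1G15570) had a p of 0.00226, 0.0122 and 0.00027 in the authors' deposited table. With the authors' deposited table adjusted, it was called under mannitol (Benjamini-Hochberg adjusted p = 0.0289) and with both compounds (0.00185). CYCA2 cyclins are known to hold back endoreduplication in leaves. The other members of that subgroup, CYCA2;2 (AT5G11300, 0.145, 0.0367 and 0.138) and CYCA2;4 (AT1G80370, 0.29, 0.0884 and 0.0951), were called in no comparison from the authors' deposited table. CYCA3;1 (AT5G43080), of a subgroup expressed around S phase, was not called either, with 0.55, 0.375 and 0.49 in the authors' deposited table.

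Of the 9 B-type cyclins, each comparison called 1 or 2. CYCB1;1 (AT4G37490), whose promoter drives the reporters commonly used to mark cells at G2 and M, had a p of 4.74e-05 for mannitol, 0.0688 for NAA and 0.0103 for the combination in the authors' deposited table. On the authors' deposited table it was called under mannitol (Benjamini-Hochberg adjusted p = 0.00126), where it had the smallest p of the 33, and with both compounds (0.0409). CYCB2;3 (AT1G20610) had 0.0012, 0.15 and 0.141 in the authors' deposited table and was called under mannitol (Benjamini-Hochberg adjusted p = 0.0173). CYCB2;1 (AT2G17620) had 0.0649, 3.48e-05 and 0.463 in the authors' deposited table and was called under NAA (Benjamini-Hochberg adjusted p = 0.000709).

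The remaining 6 B-type cyclins were called nowhere, though 4 had a p under 0.05 under NAA. Those 4 in the authors' deposited table were CYCB1;3 (AT3G11520, 0.00785), CYCB2;2 (AT4G35620, 0.0173), CYCB1;2 (AT5G06150, 0.0192) and CYCB3;1 (AT1G16330, 0.0242). CYCB1;4 (AT2G26760, 0.0632) and CYCB2;4 (AT1G76310, 0.185) lay above 0.05 in that comparison of the authors' deposited table. With both compounds these 6 ran from 0.246 to 0.918, and under mannitol from 0.0914 to 0.418, in the authors' deposited table. CYCB1;3 lay just outside the call under NAA, at a Benjamini-Hochberg adjusted p of 0.0585. It is called (0.0436) when the Benjamini-Hochberg adjusted p is taken over genes with a p under 1.

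CDKA;1 (AT3G48750), the kinase with the PSTAIRE motif that acts at both the start of DNA replication and the entry into mitosis, was called in 2 of the 3 comparisons. It had a p of 0.000242 for mannitol, 0.0195 for NAA and 1.6e-06 for the combination in the authors' deposited table. From these values of the authors' deposited table it was called under mannitol (Benjamini-Hochberg adjusted p = 0.00484) and with both compounds (1.9e-05), where its p was the smallest of the 33. CDKB1;2 (AT2G38620) had 0.375, 4.07e-06 and 0.0189 in the authors' deposited table, the smallest p of the 33 under NAA (Benjamini-Hochberg adjusted p = 0.00011). CDKB2;2 (AT1G20930) had 0.378, 0.0018 and 0.369 in the authors' deposited table and was called under NAA (Benjamini-Hochberg adjusted p = 0.0182). The other CDKB1 and CDKB2 genes were not called. CDKB1;1 (AT3G54180) had 0.26, 0.0189 and 0.301, and CDKB2;1 (AT1G76540) had 0.0174, 0.0568 and 0.839, in the authors' deposited table. The coding sequences of CDKB1;1 and CDKB1;2 were 85.7% identical, with a longest shared stretch of 41 bases, and those of CDKB2;1 and CDKB2;2 were 86.2% identical, with one of 29 bases.

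MYB3R4 (AT5G11510), an activator of G2-to-M genes through the MSA element, was called in no comparison. Its p was 0.55 for mannitol, 0.0084 for NAA and 0.94 for the combination in the authors' deposited table, and its Benjamini-Hochberg adjusted p under NAA was 0.0614. It is called under NAA (0.0458) when the Benjamini-Hochberg adjusted p is taken over genes with a p under 1.

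**Figure D3:**
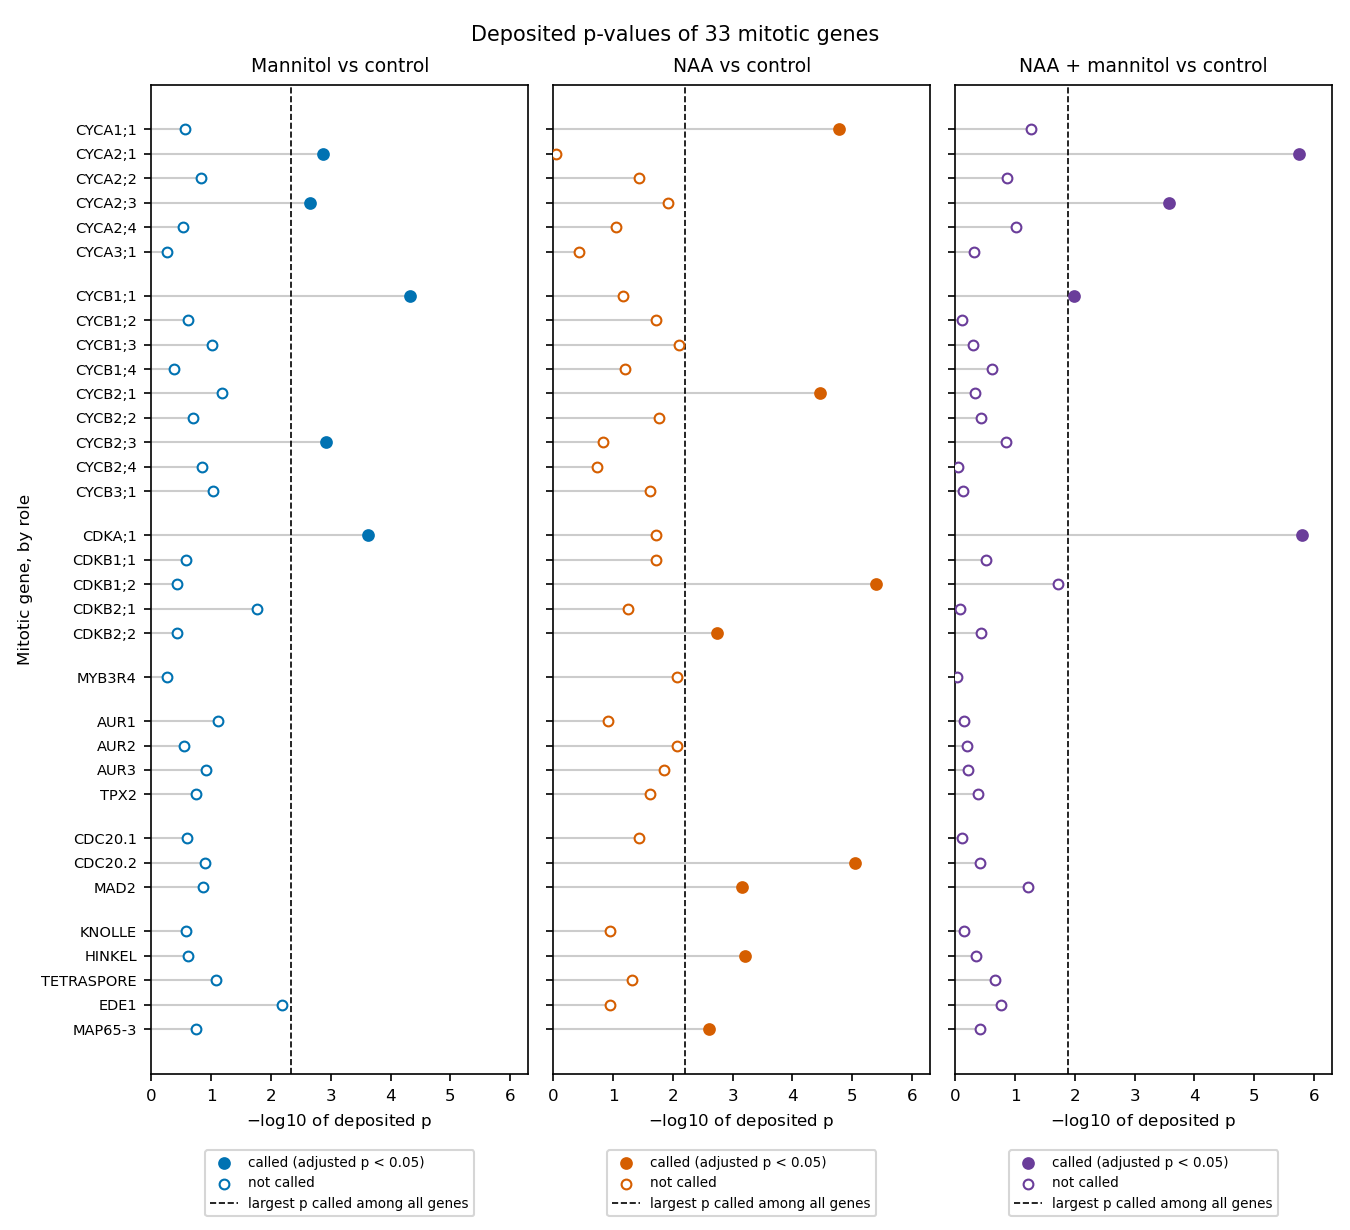
Minus log10 of the authors' deposited p for each of the 33 mitotic genes in 3 comparisons with control, grouped by role, with filled points for called genes and a dashed line at the largest p called among all genes. Filled points number 5, 8 and 4, and those of CDKB1;2, CDC20.2 and CYCA1;1 lie farthest right under NAA.

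None of the 3 Aurora kinases or TPX2 (AT1G03780) was called. AUR1 (AT4G32830) and AUR2 (AT2G25880) are kinases of the mitotic spindle and cell plate, AUR3 (AT2G45490) acts at centromeres, and TPX2 binds spindle microtubules and activates Aurora. The smallest value was that of AUR2 under NAA, 0.00859 in the authors' deposited table (Benjamini-Hochberg adjusted p = 0.0624, and 0.0466 over genes with a p under 1). AUR3 (0.0141) and TPX2 (0.0245) were also under 0.05 there, and AUR1 (0.123) was not, in the authors' deposited table. With both compounds the 4 genes ran from 0.413 to 0.725, and under mannitol from 0.0766 to 0.282, in the authors' deposited table.

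Of the 3 genes that time the exit from mitosis NAA called 2, and the other comparisons none. CDC20.2 (AT4G33260), an activator of the APC/C, had a p of 0.128 for mannitol, 8.85e-06 for NAA and 0.388 for the combination in the authors' deposited table. Its Benjamini-Hochberg adjusted p under NAA was 0.000219. CDC20.1 (AT4G33270) had 0.256, 0.0363 and 0.768 in the authors' deposited table and was not called. The pair lies 619 bases apart on chromosome 4, its coding sequences were 95.3% identical, and they shared a stretch of 314 bases without a mismatch. The sources used here do not give how reads common to both were counted, so the split between them is uncertain. MAD2 (AT3G25980), which holds back CDC20 until chromosomes are attached to the spindle, had 0.138, 0.000697 and 0.0605 in the authors' deposited table and was called under NAA (Benjamini-Hochberg adjusted p = 0.00843).

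Of the 5 spindle and cytokinesis genes NAA called 2, and the other comparisons none. HINKEL (AT1G18370), a kinesin that activates the kinase cascade by which the phragmoplast expands, had 0.247, 0.00062 and 0.456 in the authors' deposited table (Benjamini-Hochberg adjusted p = 0.00769 under NAA). MAP65-3 (AT5G51600), which bundles microtubules at the middle of the phragmoplast, had 0.177, 0.00254 and 0.393 in the authors' deposited table (Benjamini-Hochberg adjusted p = 0.024 under NAA). KNOLLE (AT1G08560), the syntaxin that fuses vesicles into the cell plate, was not called, at 0.26, 0.112 and 0.708 in the authors' deposited table. TETRASPORE (AT3G43210), a kinesin related to HINKEL and known for cytokinesis in male meiosis, had 0.0831, 0.0489 and 0.213 in the authors' deposited table. EDE1 (AT2G44190), a microtubule-binding protein of mitotic arrays, had 0.00645, 0.112 and 0.172 in the authors' deposited table. Under mannitol EDE1 lay just outside the call from the authors' deposited table (Benjamini-Hochberg adjusted p = 0.0661), and it is called over genes with a p under 1 (0.0499).

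Read beside the windows, 7 of the 8 genes called under NAA held an AACGG core, all but CDKB1;2 (in CDC20.2 only after the start). So did 3 of the 5 called under mannitol (CYCA2;1, CYCB1;1 and CYCB2;3) and 2 of the 4 called with both compounds (CYCA2;1 and CYCB1;1). Over all members the count was 23 of 33, and these small counts were not tested.

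A set of 64 other genes of the mitotic machinery, in 8 lists, gave 3 calls for mannitol (4.69%), 17 for NAA (26.6%) and 15 for the combination (23.4%). The share among all genes was 9.07%, 12.8% and 26.3%. A p under 0.05 in the authors' deposited table was found for 13, 28 (43.8%) and 22 (34.4%) of the 64, against 17.9%, 21.8% and 33.9% of all genes. None of the 4 spindle checkpoint genes was called in any comparison. Among the 3 other MYB3R factors, MYB3R1 was called under NAA (0.000588 in the authors' deposited table, Benjamini-Hochberg adjusted p = 0.00735). MYB3R5, counted among the repressors of G2-to-M genes, was called with both compounds (4.46e-05 in the authors' deposited table, Benjamini-Hochberg adjusted p = 0.000379).

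The 7 genes for CKS adaptors and CDK-activating kinases gave 1, 2 and 2 calls. CDKF;1, a kinase that acts upstream of the CDK-activating kinases, was called in each comparison, at 4.95e-08, 8.94e-08 and a listed 0 in the authors' deposited table. CKS2, a CDK-binding adaptor, was called under NAA (0.00127 in the authors' deposited table, Benjamini-Hochberg adjusted p = 0.0137). CDKD;2 was called with both compounds (2.5e-05 in the authors' deposited table, Benjamini-Hochberg adjusted p = 0.000226). Of 6 further A- and B-type cyclins CYCA3;4 was called, with both compounds (0.00031 in the authors' deposited table, Benjamini-Hochberg adjusted p = 0.00208).

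APC/C subunit genes gave 1, 4 and 2 calls among 11. APC1, a scaffold subunit, was called in each comparison (0.000513, 9.56e-09 and 0.000369 in the authors' deposited table). APC4 had a p of 2.25e-07 under NAA in the authors' deposited table, and the subunit HBT (HOBBIT) had 1.95e-06 under NAA and 0.00684 with both compounds. Among 9 activators and inhibitors of the APC/C, FZR3 (CCS52B) was called under NAA (0.0016 in the authors' deposited table, Benjamini-Hochberg adjusted p = 0.0166). OSD1, an inhibitor of the complex, was called with both compounds (0.00655 in the authors' deposited table, Benjamini-Hochberg adjusted p = 0.0281).

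The 14 phragmoplast and cell plate genes gave 1, 5 and 5 calls. POK2 and POK1, kinesins that guide the phragmoplast to the division site, had 5.66e-10 and 1.49e-07 under NAA in the authors' deposited table, and POK1 also 0.00291 under mannitol. With both compounds the smallest values were those of MPK4, listed at 0, and KEU (KEULE), 2.78e-07, in the authors' deposited table. MPK4 also acts in immune signalling, and KEU binds KNOLLE. The 10 spindle and kinetochore genes gave 0, 4 and 3 calls. WYR, a partner of Aurora at the centromere, and the microtubule end-binding gene EB1C had 4.09e-07 and 1.02e-05 under NAA in the authors' deposited table. EB1B, a relative of EB1C (3.2e-07), and GCP3, of microtubule nucleation (0.000571), led with both compounds in the authors' deposited table.

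**Figure D4:**
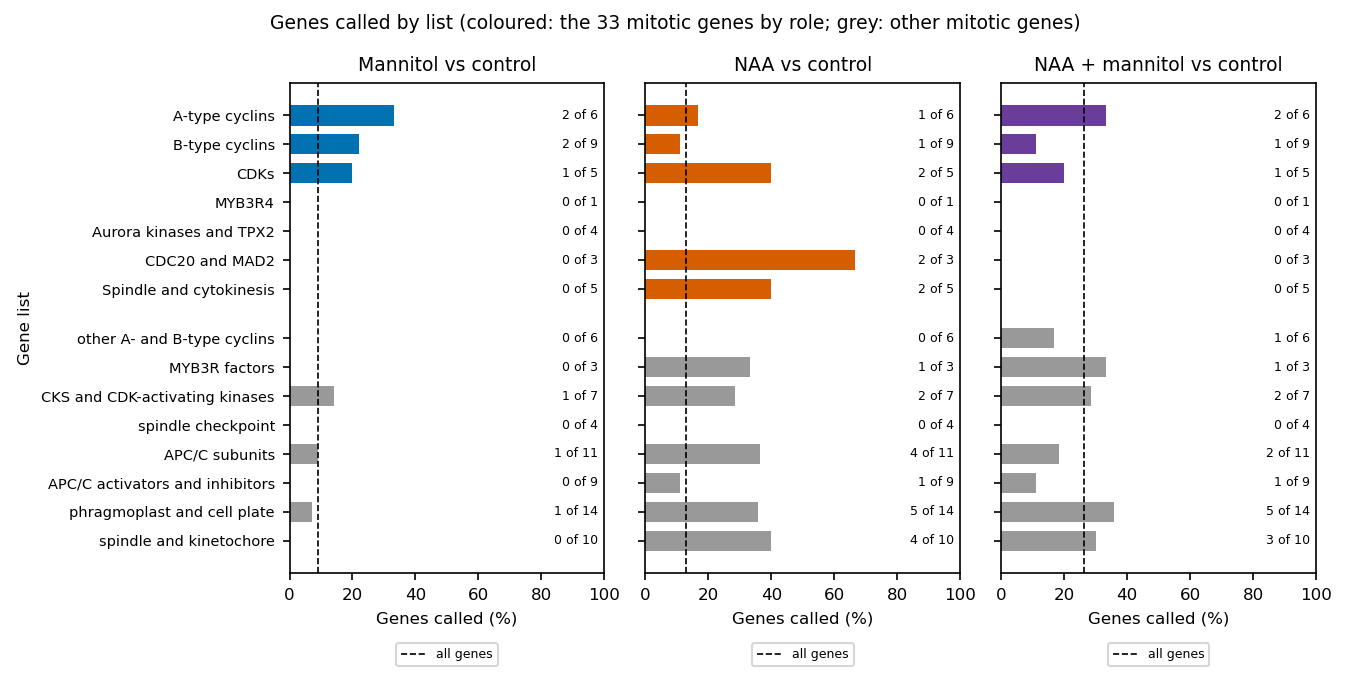
Share of genes called (horizontal axis, percent) in each role group of the 33 mitotic genes (coloured) and in each list of other mitotic genes (grey), with counts at the right and a dashed line at the share of all genes, 9.07%, 12.8% and 26.3%. Under NAA 2 of 3 CDC20 and MAD2 genes and 4 of 10 spindle and kinetochore genes were called.

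Markers of other cell types were read in the same table, since levels that would check the tissue label are not analysed here. Of the 5 stomatal lineage genes, 1, 1 and 3 were called for mannitol, NAA and both. SPCH, which starts the divisions of that lineage, was among them each time (0.00151, 1.4e-07 and 5.92e-05 in the authors' deposited table). CPC, of the trichome genes, was likewise called each time (1.85e-08, 0.00306 and 0.0107 in the authors' deposited table). Mesophyll genes gave 0, 0 and 2 calls of 4, trichome genes 1, 1 and 2 of 4, vascular genes 0, 0 and 1 of 5 and root genes 1, 1 and 1 of 4. The root calls were SCR for mannitol and for both compounds and SHR for NAA, and the other root genes had none. Counted at an unadjusted p under 0.05 in the authors' deposited table, the mesophyll genes numbered 4, 1 and 4 of 4, with values from 0.021 to 0.0498 for mannitol and from 7.03e-05 to 0.0325 for the combination. At the same limit in the authors' deposited table there were 1, 1 and 4 of 5 stomatal lineage genes, 1, 2 and 3 of 4 trichome genes, 1, 2 and 2 of 5 vascular genes, 1, 1 and 1 of 4 root genes and 0 shoot meristem genes. Of 3 shoot meristem genes none was called, with 2 listed at a p of 1 in each comparison of the authors' deposited table. Beside these small lists, 9.07%, 12.8% and 26.3% of all genes were called for mannitol, NAA and both. A p under 0.05 in the authors' deposited table was held by 17.9%, 21.8% and 33.9% of all genes. The part of these cell types in the values of the mitotic genes was not tested.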

How the data were processed

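RNA of the first leaf pair was sequenced with a stranded poly(A) kit in 12 samples, per the labels' protocols, and TAIR10 is the genome build named in the submitters' processing notes. The authors deposited 1 p-value per gene for each of 3 comparisons with control, per the file headers, which call them detection p-values. The sources used here name no test, adjustment, use of replicates, aligner or counting method. The 24 columns of library values were not used, because their headings match no sample label, so the planned quasi-likelihood fit was not run and depth per sample is not analysed here. The deposited p-values were adjusted by the Benjamini-Hochberg method over 28642 genes in each comparison, in Python 3.11.15 with SciPy 1.17.1, a step tested on simulated data, and called under 0.05. Genes tied at 0.317 (within 1e-06) numbered 1235, 1290 and 1218 for mannitol, NAA and both, none of them a member.

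Promoters and coding sequences were read from RefSeq's TAIR10.1 genome and annotation. The deposited tables hold locus identifiers and no coordinates. All 33 members matched RefSeq by locus and symbol, as did all 64 other mitotic loci by locus and 59 of them by symbol; the other 5 are counted and not named. Coding identity comes from global alignment of the longest coding sequence of each gene (Biopython 1.88) within a role group. Named genes are all members, plus up to 2 called genes per list and comparison with the smallest adjusted p. The members and lists were chosen with earlier results of these data known, so their counts are descriptions beside the share of all genes, without a list test.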

Additional observations from a re-analysis of the deposited data

How the results depend on the processing

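Counts of members stayed within 1.5 times the reported 5, 8 and 4 (mannitol, NAA and both) under adjustment over genes with a p under 1 in that comparison or in all 3, without genes listed at 0, at an unadjusted 0.01, and without CDC20.1 and CDC20.2, an alternative chosen after seeing the data. The NAA count was 11 over genes with a p under 1 in that comparison (4038 of all genes) or in all 3 (4054). It was also 11 at an unadjusted 0.01 (4096 of all genes). At an unadjusted 0.05 the NAA count was 22, with 6243 of all genes (5129 under mannitol). Bonferroni adjustment left 0, 0 and 1 members, of 698, 948 and 2423 genes. In a further setting each p was converted to a z and referred to a t distribution (4 degrees of freedom). Then 0 members and 0 genes passed the Benjamini-Hochberg step in each comparison. Under an unadjusted 0.05 there were 5, 8 and 3 members (9.48%, 12.5% and 22.6% of all genes). Genes listed at 0 (78, 74 and 423, no member) were given a z of 8.30. That is a low floor, since other deposited p ran down to 1.75e-97, 9.98e-123 and 8.36e-288. The 0 for all genes rests on this floor, and a higher one was not tried. The Bonferroni and t settings are stricter by construction. The share of members with the AACGG core was 45.5% on the gene's strand alone, where fewer matches are possible, 66.7% with the longer words, and 57.6% (20.6% of all promoters) in the bases before the start, a window chosen after seeing the data. No paired analysis was possible because none of the library columns could be tied to a sample or its replicate number. For the same reason other count models, filters, scalings and leaving out each replicate were not run, and what depth limits is not analysed here.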
